A study of Rattus norvegicus with 6 samples.

Results

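The 10 genes described here are early response genes of the EGR, NR4A and IER families together with Btg2: Egr1, Egr2, Egr3, Nr4a1, Nr4a2, Nr4a3, Ier2, Ier3, Ier5 and Btg2. They were chosen by gene symbol from the deposited FPKM table, with their values in the exosome and saline libraries already known, so the difference between these groups is given for them as a description and without a test. All 10 were found among the 24005 gene symbols of the table. Of these, 9 had a mean of at least 1 FPKM over the 6 libraries and entered the test across genes, and Egr2 lay below that minimum. FPKM is the number of fragments or reads scaled to the length of the gene and to the size of the library, so levels of different genes are compared here per length.

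The libraries were made from rat aorta after chronic kidney disease had been produced by partial removal of the left kidney and, 1 week later, removal of the right. All rats, in either group, also ate a diet with 1.2% phosphorus, which speeds up calcification of the vessel. The exosome group (3 libraries) received ANCR/E7-EXO, an engineered exosome preparation, at 10 mg/kg into the tail vein every 5 days, and the saline group (3 libraries) received an equal volume of normal saline over 13 weeks. Strain, age and sex, and whether each library came from its own rat, are not stated in the labels, so the spread between libraries may be partly technical. Libraries are named by group and by the number in their label.

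Early response genes are transcribed within minutes of a stimulus, from promoters that are already occupied, and need no new protein for this. The EGR proteins are zinc finger transcription factors that follow growth factors, stretch and injury in the vessel wall, the NR4A proteins are orphan nuclear receptors that act without a known hormone, and the IER proteins and BTG2 are small regulators of signalling and of proliferation. Their transcripts are short-lived, so a level in tissue reflects the last stretch of time before the tissue was taken. The main routes to them run through ERK signalling and serum response factor (SRF), which binds the CArG box, and through cAMP signalling and CREB, which binds the cAMP response element (CRE).

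The FPKM values were whole multiples of a step in each library, which gave library totals of 28063355 to 44561082 reads or read pairs. Egr2 was backed by 17 to 251 reads per library and Egr3 by 79 to 1113, and the other 8 members by 368 to 17598. The vessel origin held up in all libraries: the 8 smooth muscle markers summed to 13716 to 21542 FPKM with saline and to 15266 to 21612 FPKM with exosomes. In RNA from whole tissue, fewer cells of a type and less RNA per cell cannot be told apart.

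Levels differed widely between the members. In the saline group Egr1 was the highest, at 246.3 ± 114.1 FPKM (mean ± SD, n = 3, as for all values of this form), followed by Btg2 at 167.8 ± 70.3 FPKM, and the ranges of these neighbours overlapped. Nr4a1 (39.6 ± 4.48 FPKM), Ier2 (31.3 ± 11.9 FPKM), Ier3 (22.9 ± 5.40 FPKM) and Ier5 (19.3 ± 4.90 FPKM) formed a middle group, in which each overlapped the next. Nr4a3 (9.94 ± 4.04 FPKM) and Egr3 (9.82 ± 2.16 FPKM) overlapped each other, and Nr4a2 (3.45 ± 0.523 FPKM) and Egr2 (1.04 ± 0.525 FPKM) stood apart below them. In the exosome group Egr1 and Btg2 again led and overlapped, at 95.4 ± 69.0 and 62.6 ± 9.75 FPKM. The order changed at Nr4a3, which moved from rank 7 to rank 4 at 32.5 ± 30.4 FPKM, and at Egr3, which moved from rank 8 to rank 9 at 2.83 ± 2.02 FPKM. These levels rest on the gene length behind each FPKM value: for Egr1 the values implied 1527 bases, against a RefSeq gene span of 3800 bases. A longer length could also take in more reads, so its effect on this level is not known from these values. In reads recovered with the implied lengths and summed over the saline libraries, Btg2 had more than Egr1 (40570 against 37389). Summed over the exosome libraries, Nr4a3 had the most, at 20396 against 17259 for Btg2 and 17178 for Egr1. Of the Nr4a3 reads, 14786 were in exosome 3. Egr1 therefore ranked first per length and not in recovered reads. For Ier2 and Ier5, at 1525 and 2093 bases, the implied length equalled the span.

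**Figure D1:**
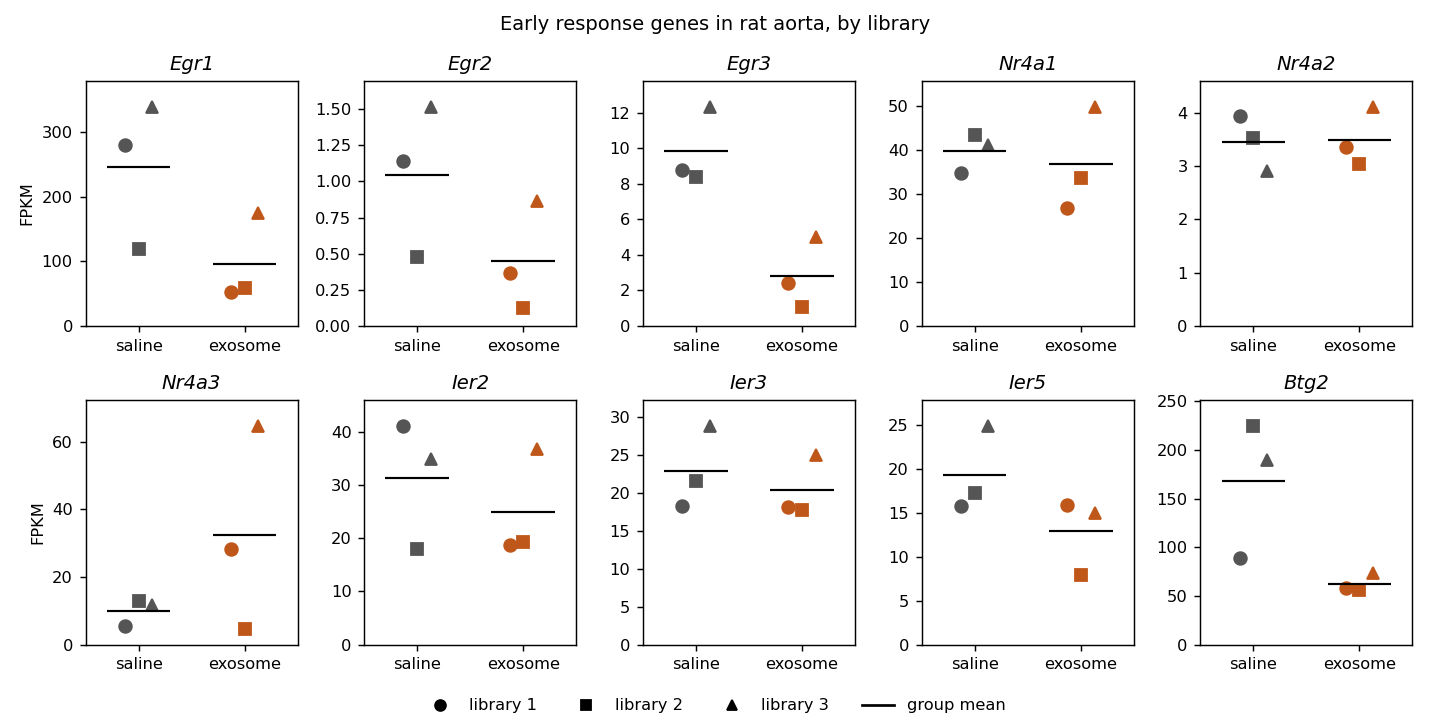
FPKM of the 10 early genes (vertical axes, each starting at 0) in the 3 saline and 3 exosome libraries, with the library number as the symbol and the group mean as a line. The groups are apart for Egr3 and Btg2, overlap for the other 8, and in Nr4a3 exosome 1 and 3 lie above exosome 2.

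Across the members, 8 had a lower mean log2 value with exosomes and 2 a higher one, with a median log2 difference of -0.40 on the log2(FPKM + 1) scale. Over the 11742 genes tested the median was -0.07, with 60.7% of genes lower and 39.3% higher. For 2 of the 10, Egr3 and Btg2, every exosome library lay below every saline library, where 11.7% of all genes tested did so. For none did every exosome library lie above, where 9.4% of all genes did. Because the members were chosen from this comparison, these counts only describe them.

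EGR1, also known as NGFI-A and Krox-24, binds GC-rich sites and switches on growth factor and matrix genes. Egr1 stood at 281.2, 118.8 and 338.9 FPKM in saline 1, 2 and 3 and at 51.9, 59.3 and 175.03 FPKM in exosome 1, 2 and 3. Exosome 1 and 2 were below all saline libraries, while exosome 3 was above saline 2, so the groups overlapped. The saline mean was 2.58 times the exosome mean, and the log2 difference was -1.45. It ranged from -1.997 without exosome 3 to -1.13 without exosome 1.

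EGR3 is a close relative that is itself induced downstream of growth factor and immune signals. Egr3 stood at 8.77, 8.39 and 12.3 FPKM in the saline libraries and at 2.41, 1.06 and 5.03 FPKM in the exosome libraries. Every exosome library lay below every saline library, and exosome 2 was the lowest of all. The saline mean was 3.47 times the exosome mean, with a log2 difference of -1.62, the most negative of the 10, between -2.01 without exosome 3 and -1.24 without exosome 2.

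EGR2, or Krox-20, is best known for driving myelination in Schwann cells. Egr2 was listed at 1.14, 0.477 and 1.51 FPKM with saline and at 0.370, 0.124 and 0.865 FPKM with exosomes. The lowest value, in exosome 2, came from 17 reads, for which the exact 95% Poisson interval is 0.0723 to 0.199 FPKM and covers counting error only. Saline 2 lay between the exosome libraries, so the groups overlapped, as for Egr1. The saline mean was 2.30 times the exosome mean, and the log2 difference of -0.49 is understated by the pseudocount of 1 at this level (-1.17 with a pseudocount of 0.1). The 9 Schwann cell markers summed to 155.3 to 177.2 FPKM with saline and 130.6 to 158.9 FPKM with exosomes, with none at 0 in all libraries. Of the 9, 7 reached a mean of 1 FPKM. In log2 units, these 7 deviated from their own means by 0.29, 0.03 and -0.11 on average in saline 1, 2 and 3. In exosome 1, 2 and 3 these markers deviated by -0.25, -0.26 and 0.30. Their part in the Egr2 values was not tested.

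Promoter sequence was at hand for 7 members in the RefSeq table of build GRCr8, as windows of 300 bases that start 250 bases before the transcription start the table uses. This start was the outer end of the gene span for Egr1, Ier2, Ier5 and Btg2. It lay inside the span for Egr2 (by 760 bases), Nr4a1 (12985 bases) and Nr4a2 (11039 bases), so for these genes the promoter of a longer transcript was not searched. For 5 members a stretch of 90 bases is shown, because it holds sites of the SRF and CREB routes named above. All motifs were searched on both strands. They were the CArG box, the full CRE (TGACGTCA), the CRE core (TGACG, which the full CRE holds on each strand), the EGR site (GCGGGGGCG or GCGTGGGCG) and the NR4A site NBRE (AAAGGTCA). Of 33365 distinct promoter windows, 1.63% held a CArG box, 1.83% a full CRE, 21.2% a CRE core, 3.21% an EGR site and 1.42% an NBRE. Capitals mark these motifs in the 2 EGR promoters, at chr18:26736948-26737037 on the plus strand for Egr1 and chr20:21054482-21054571 on the minus strand for Egr2:
Egr1: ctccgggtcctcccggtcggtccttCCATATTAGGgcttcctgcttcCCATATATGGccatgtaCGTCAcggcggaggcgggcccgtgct
Egr2: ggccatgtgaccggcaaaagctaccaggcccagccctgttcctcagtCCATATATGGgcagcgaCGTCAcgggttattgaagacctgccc
The Egr1 window held 2 CArG boxes and Egr2 held 1, and these were the only members of the 7 with that motif. The box nearest the start had the same 10 letters in Egr1 and Egr2. In either gene its first base lay 83 bases upstream of the start, and 7 bases separated it from a CRE core. The match describes the letters and does not show that a factor was bound.

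The NR4A genes did not share a direction. NR4A1, or Nur77, responds to a broad range of stimuli in smooth muscle and macrophages. Nr4a1 stood at 34.6, 43.3 and 40.99 FPKM with saline and 26.8, 33.7 and 49.6 FPKM with exosomes. The exosome libraries held the lowest and the highest value, so the saline range lay inside the exosome range. The log2 difference was -0.15, and it turned to 0.05 without exosome 1. NR4A2, or Nurr1, is known mainly from dopamine neurons. Nr4a2 stood at 3.94, 3.52 and 2.90 FPKM with saline and 3.35, 3.04 and 4.10 FPKM with exosomes, the narrowest range of the 10, with the highest library at 1.42 times the lowest. Its log2 difference was 0.01, and it changed sign in 3 of 16 other settings. Among the 16, the other filters and the replicate block could not change it.

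NR4A3, or NOR-1, is induced by growth factors in smooth muscle. Nr4a3 stood at 5.34, 12.9 and 11.6 FPKM with saline and at 28.2, 4.49 and 64.8 FPKM with exosomes. Exosome 1 and 3 were the highest of the 6 libraries and exosome 2 was the lowest. The exosome mean was 3.27 times the saline mean, and the log2 difference of 1.08 moved between 0.29 without exosome 3 and 2.08 without exosome 2. With exosome 1 and 3 both left out, only exosome 2 remained, the lowest library, and the log2 difference was -0.92. In saline 1, 2 and 3 the level of Nr4a1 was 6.48, 3.36 and 3.54 times that of Nr4a3, against 0.952, 7.50 and 0.766 times in exosome 1, 2 and 3. Nr4a3 was therefore the leading NR4A transcript in exosome 1 and 3, and Nr4a1 in the other 4 libraries.

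Among the NR4A genes a promoter window was at hand for Nr4a1 and Nr4a2. The stretch shown, at chr7:134260028-134260117 on the plus strand, holds 2 of the 4 CRE cores of the Nr4a1 window and its EGR site, in capitals:
Nr4a1: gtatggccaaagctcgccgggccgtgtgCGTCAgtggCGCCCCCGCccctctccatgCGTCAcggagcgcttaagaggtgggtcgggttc
Nr4a1 was the only member of the 7 with an EGR site. The Nr4a2 window held 1 CRE core and none of the other motifs, and no member held an NBRE in its window. No match means only that these letters are not in the window.

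In the exosome group, Nr4a3 had the same order of libraries as the summed heat shock genes, which encode chaperones under the control of heat shock factor HSF1. The 13 heat shock genes tested summed to 2036, 1648 and 2500 FPKM in saline 1, 2 and 3, and to 6064, 1370 and 10819 FPKM in exosome 1, 2 and 3. Exosome 3 was the highest and exosome 1 the next highest for the heat shock sum and for Nr4a3, and exosome 2 was the lowest for each. This order within the exosome group was not particular to Nr4a3, as Egr2, Egr3, Nr4a2, Ier3 and Btg2 had it too. In the saline group Nr4a3 and the heat shock sum differed in order: saline 2 had the highest Nr4a3 level and the lowest heat shock sum. All 13 had a log2 difference above 0 (39.3% of all genes tested did), with a median of 1.06, and in none did the groups fall apart. Dnajb1 was the lowest of them at 0.01, with a saline mean of 55.6 ± 41.96 FPKM and an exosome mean of 49.4 ± 20.4 FPKM, and its highest library was saline 3, at 102.5 FPKM. Hsph1 (log2 difference 1.77 ± 0.83, limma standard error), Hsp90aa1 (1.32 ± 0.61), Chordc1 (1.06 ± 0.44) and Hsp90ab1 (0.93 ± 0.40) had the smallest p and did not pass, at limma adjusted p of 0.308 to 0.337. With exosome 1 and 3 both left out, only exosome 2 remained, the lowest library of the sum, and the median was -0.21. Hsf1 itself stood at 15.1 ± 1.81 and 16.2 ± 1.24 FPKM. The part of this heat shock difference in the Nr4a3 values was not tested.

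IER2 is a nuclear early response protein, IER3 (IEX-1) acts on survival and ERK signalling, and IER5 binds HSF1 and the phosphatase PP2A. Ier2 stood at 41.1, 17.99 and 34.8 FPKM with saline and 18.7, 19.3 and 36.7 FPKM with exosomes. Its values fell into a high level in saline 1, saline 3 and exosome 3 and a low level in the other 3 libraries, with both levels present in each group. The log2 difference was -0.31, between -0.65 without saline 2 and -0.08 without saline 1. Ier3 stood at 18.3, 21.5 and 28.8 FPKM with saline and 18.2, 17.7 and 24.996 FPKM with exosomes. The groups overlapped, and its log2 difference of -0.16 turned to 0.01 without saline 3.

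Ier5 stood at 15.8, 17.2 and 24.9 FPKM with saline and 15.9, 7.87 and 15.01 FPKM with exosomes. Exosome 1 lay just above saline 1, so the groups overlapped. Exosome 2 was the lowest library, as for Egr2, Egr3, Nr4a3, Ier3 and Btg2. The saline mean was 1.49 times the exosome mean and the log2 difference was -0.58, between -0.74 and -0.28 with a library left out.

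BTG2, also known as PC3 and TIS21, is an antiproliferative protein that recruits the CCR4-NOT complex to shorten the poly(A) tails of mRNAs, and it is a target of p53. Btg2 stood at 89.3, 224.8 and 189.4 FPKM with saline and 58.2, 55.8 and 73.7 FPKM with exosomes. Every exosome library lay below every saline library, although saline 1 was closer to exosome 3 than to saline 2 or 3. The saline mean was 2.68 times the exosome mean, and the log2 difference was -1.32, between -1.72 without saline 1 and -1.05 without saline 2. The saline values spread more widely (SD 42% of the mean) than the exosome values (16%). The opposite held for Egr3, at 22% and 71%.

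The IER and BTG2 promoters are shown because they hold the full CRE, which no other of the 7 windows did. It is in capitals at chr19:40399273-40399362 on the plus strand for Ier2 and chr13:48087831-48087920 on the minus strand for Btg2:
Ier2: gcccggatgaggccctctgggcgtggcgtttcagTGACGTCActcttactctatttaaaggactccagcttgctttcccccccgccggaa
Btg2: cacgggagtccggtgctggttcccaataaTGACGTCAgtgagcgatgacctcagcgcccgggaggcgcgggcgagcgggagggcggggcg
The element began 66 bases upstream of the start in Ier2 and 201 bases upstream in Btg2. The window of Ier5 held none of the 5 motifs.

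**Figure D2:**
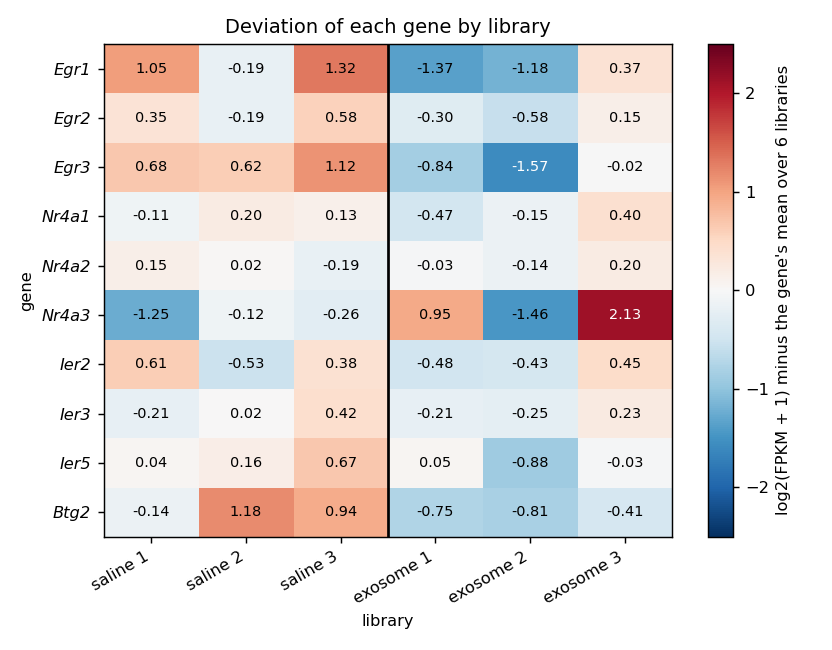
Deviation of each gene (rows) from its own mean over the 6 libraries (columns), in log2(FPKM + 1), with red for above and blue for below. Exosome 3 is the highest exosome library for 9 of the 10 genes, and Nr4a3 reaches 2.13 there.

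The members varied strongly within the groups. The pooled SD within groups, in log2 units, was 1.36 for Nr4a3, 0.88 for Egr1, 0.58 for Egr3, 0.57 for Ier2, 0.52 for Btg2 and 0.43 for Ier5, against a median of 0.19 over all genes tested. These 6 lay above the 90th percentile of all genes tested, with Nr4a3 at the 99.7th and Egr1 at the 98.6th. Against genes with a mean FPKM within 2-fold of their own, Nr4a3 was at the 99.8th and Egr1 at the 98.6th percentile. Nr4a2 lay at the 43.04th percentile, the lowest of the 10.

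The libraries also ranked unevenly. Within the exosome group, exosome 3 held the highest value for 9 of the 10 members, Ier5 being the exception, where it did so for 24.8% of all genes tested. Exosome 2 held the lowest value for 7 of the 10, against 23.7% of all genes. Within the saline group, saline 3 was the highest for 5 of the 10 (43.0% of all genes) and saline 1 the lowest for 5 (46.2%). Exosome 3 also had the largest library total. FPKM is scaled to this total, and the part of depth in these ranks was not tested.

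Egr1, Egr2 and Ier2 had the same 3 libraries on top: saline 1, saline 3 and exosome 3 were each above saline 2, exosome 1 and exosome 2. This order was read from the values of these 3 genes, so its count among the members only describes them. It was found for 3 of the 10 members and for 243 of the 11742 genes tested (2.07%). The summed level of red cell genes followed the same order. It was 270.3, 112.0 and 244.3 FPKM in saline 1, 2 and 3. In exosome 1, 2 and 3 it was 124.8, 64.4 and 219.0 FPKM. The sum came mostly from Hbb, a beta-globin gene (262.1, 108.7 and 241.9 FPKM with saline and 120.2, 60.002 and 213.7 FPKM with exosomes). Alas2, the erythroid enzyme of haem synthesis, had the same order, while Hba-a1, at 0.137 to 5.21 FPKM, did not. Of 5 red cell genes listed, 4 were in the table and none was at 0 in all libraries. In log2 units, the 3 that were tested deviated from their own means by 0.74, -0.30 and -0.22 on average in saline 1, 2 and 3. In exosome 1, 2 and 3 they deviated by -0.11, -0.47 and 0.35. Saline 3 was thus below exosome 1, and this average did not have the order of the sum. The part of red cell RNA in the Egr1, Egr2 and Ier2 values was not tested.

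**Figure D3:**
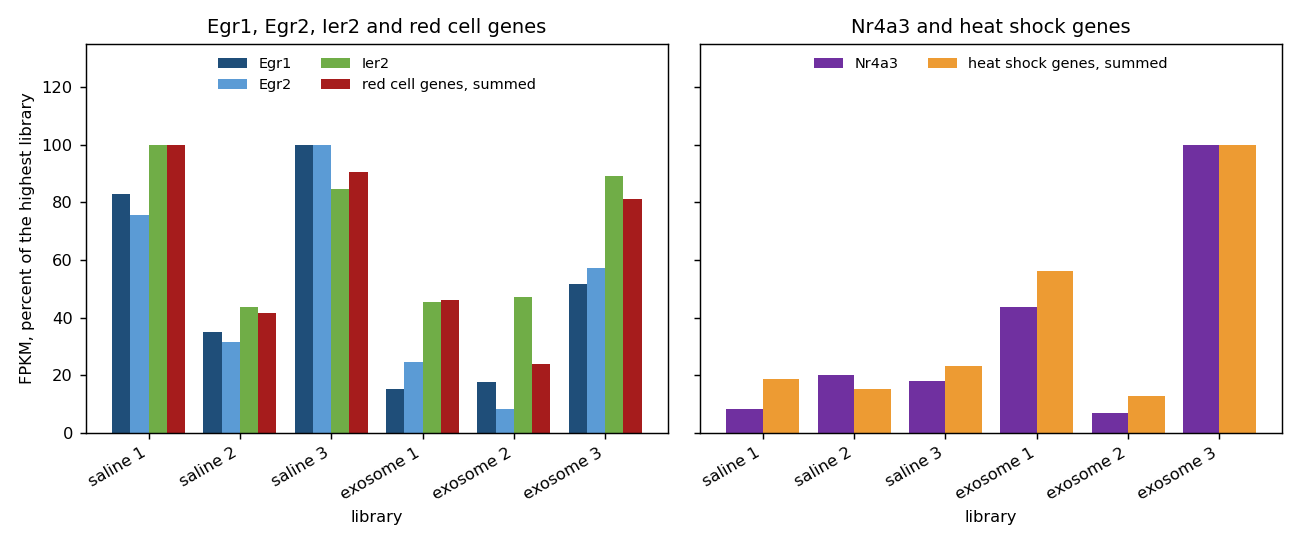
FPKM per library as a percentage of the highest library (bars from 0), on the left for Egr1, Egr2, Ier2 and the summed red cell genes, and on the right for Nr4a3 and the summed heat shock genes. On the left saline 1, saline 3 and exosome 3 are the 3 highest for all 4 measures; on the right exosome 3 is the highest and exosome 1 the next.

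Btg2 had a different order, with saline 2 and 3 far above the rest, and other early genes shared it. Jun, a subunit of AP-1, stood at 74.3, 252.3 and 286.6 FPKM with saline and 53.2 to 57.8 FPKM with exosomes. Atf3, a stress-induced factor, stood at 8.10, 170.6 and 134.1 FPKM with saline and 6.60 to 8.14 FPKM with exosomes. In each, saline 1 was near the exosome level, as for Klf6 (62.7, 177.4 and 148.98 FPKM with saline, 59.99 to 70.8 FPKM with exosomes). Jun and Atf3 were chosen for mention, like Klf6, after their values were seen. The sum of adipocyte markers was highest in saline 2 (1230 FPKM, against 395.6 to 818.2 in the other 5 libraries), and saline 3 was at 444.5 FPKM. The 9 macrophage markers summed to 107.2 to 126.5 FPKM with saline and to 146.5 to 179.2 FPKM with exosomes, so this sum separated the groups in the opposite direction to Egr3 and Btg2, with 8 of 9 higher and none at 0. The 10 endothelial markers summed to 116.3 to 150.97 and 161.0 to 244.2 FPKM, with 8 of 10 higher and none at 0. Every exosome library lay above every saline library for 6 of the 9 macrophage and 4 of the 10 endothelial markers. Over all genes tested, 9.4% did so and 39.3% were higher. The 8 T and B lymphocyte markers summed to 13.5 to 14.5 and 15.1 to 21.1 FPKM, also apart, but only 1 of them reached a mean of 1 FPKM. The part of these cells in the Egr3 and Btg2 values was not tested.

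The test across genes was limma on log2(FPKM + 1), two-sided, with Benjamini-Hochberg adjustment over 11742 genes. It called 1 gene in all, Zbtb16, which is 0.00852% of those tested. The genes around the early genes were read from 11 lists of partners, regulators and targets, with 160 tested genes that are not members. None of the 160 passed, with adjusted p from 0.219 to 0.999. At an unadjusted p under 0.05 limma found 16 of them higher and 15 lower (19.4%, against 16.0% of all genes), and voom on recovered reads called none. The values that follow therefore describe genes that did not pass; a plus-minus after a log2 difference is the limma standard error.

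The corepressors NAB1 and NAB2 bind EGR proteins and dampen them. Nab1 was lower (47.8 ± 3.06 and 39.5 ± 1.78 FPKM with saline and exosomes) with groups apart, and Nab2 stood at 12.5 ± 0.387 and 14.8 ± 3.12 FPKM. Srf stood at 35.5 ± 11.7 and 41.2 ± 4.85 FPKM, with saline 1 (48.7 FPKM) as its highest library. Its actin-regulated cofactor MRTF-A, listed as Mkl1, stood at 9.25 ± 1.23 and 17.2 ± 4.59 FPKM, with every exosome library above every saline library (log2 difference 0.80 ± 0.20, limma adjusted p = 0.255). Med23, a Mediator subunit that ELK1 contacts, had a log2 difference of -0.28 ± 0.16. Over the 9 tested genes of this list 5 were higher and 4 lower, with a median of 0.01. Egr4 was listed at 0 in every library.

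Genes reported as EGR1 targets in the vessel wall were mostly on the other side from Egr1, with 13 of 18 higher and a median of 0.09. Over all genes tested, 39.3% were higher. Of the 18, 1 had an unadjusted limma p under 0.05, where 16.0% of all genes did. The growth factor gene Fgf2 (7.43 ± 0.513 and 9.58 ± 0.350 FPKM) and Tgfb1 (29.2 ± 1.65 and 35.3 ± 4.21 FPKM) were higher with groups apart. Fn1, which encodes fibronectin, had a log2 difference of 0.48 ± 0.25 and Pdgfa, a mitogen for smooth muscle, of 0.26 ± 0.15. The median turned to -0.02 without exosome 3 and reached 0.24 without saline 2.

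Of 10 tested genes around the NR4A receptors, partner receptors and genes linked to NR4A activity in muscle, 9 were lower, with a median of -0.17. Over all genes tested, 60.7% were lower. The glucose transporter gene Slc2a4 (45.3 ± 2.73 and 27.6 ± 8.38 FPKM) and the enolase gene Eno3 (16.8 ± 3.27 and 11.9 ± 1.24 FPKM) were lower with groups apart. Bcl2 (log2 difference -0.53 ± 0.29) and Rxrg (-0.40 ± 0.22) had overlapping groups. Leaving out exosome 1 and 3 together, so that exosome 2 alone remained, turned the median of this list to 0.10.

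On the CREB route 7 of 15 tested genes were higher and 8 lower, with a median of -0.08. The catalytic subunit gene of protein kinase A, Prkaca (47.4 ± 4.14 and 35.8 ± 1.80 FPKM), and the cAMP phosphodiesterase gene Pde4d (21.8 ± 3.05 and 13.8 ± 3.81 FPKM) were lower with groups apart. The coactivator genes Crtc2 (19.4 ± 1.70 and 24.01 ± 0.736 FPKM) and Crebbp (7.53 ± 0.188 and 8.99 ± 0.857 FPKM) were higher with groups apart. On the ERK route the median was 0.12, and 10 of 13 tested genes lay above 0, where 39.3% of all genes tested did. The feedback inhibitors Spred2 (6.29 ± 0.428 and 8.50 ± 1.10 FPKM, groups apart), Spry4 (log2 difference 0.35 ± 0.18), Dusp6 (0.44 ± 0.25) and Dusp4 (0.42 ± 0.29) led this list.

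Within the BTG and TOB family the paralogs went in different directions. Btg1, which shares the antiproliferative role of Btg2, stood at 99.7, 170.8 and 132.9 FPKM with saline and 55.1, 66.7 and 52.7 FPKM with exosomes. As for Btg2, every exosome library lay below every saline library and saline 1 was the lowest saline library (log2 difference -1.17 ± 0.20, limma adjusted p = 0.219). Tob2 (25.9 ± 2.93 and 44.5 ± 7.50 FPKM) and Btg3 (16.7 ± 1.24 and 21.2 ± 2.23 FPKM) were higher with groups apart, as was Pan3, a subunit of another deadenylase (16.7 ± 0.635 and 20.2 ± 2.92 FPKM). The family and its deadenylases, 19 tested genes, had 9 higher, 10 lower and a median of -0.03. Targets of p53 other than Btg2 were lower in 10 of 14, where 60.7% of all genes tested were lower. Their median was -0.13, and their differences were smaller than that of Btg2. Tp53inp1 (-0.49 ± 0.28), Cdkn1a (-0.34 ± 0.22), Sesn2 (-0.27 ± 0.13) and Mdm2 (-0.22 ± 0.12) had the smallest p.

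Among the partners of the IER proteins, the PP2A scaffold gene Ppp2r1b was lower (47.8 ± 9.28 and 27.9 ± 1.48 FPKM) and the catalytic subunit gene Ppp2cb higher (59.3 ± 2.95 and 75.7 ± 9.66 FPKM), with groups apart for each. The regulatory subunit genes Ppp2r5b (11.9 ± 0.647 and 14.1 ± 0.639 FPKM) and Ppp2r5c (84.9 ± 12.5 and 68.6 ± 11.9 FPKM) followed. Of 13 tested genes 8 were higher, with a median of 0.07. Many early transcripts carry AU-rich elements, whose binding proteins shorten (ZFP36 family) or extend (HuR, from Elavl1) their life or act on their translation (TIA1). The median of the 8 genes for such proteins was 0.11, with 5 above 0, and the groups were apart for Zfp36l1, which was lower (160.9 ± 47.2 and 86.3 ± 15.1 FPKM), and Elavl1, which was higher (14.7 ± 0.870 and 18.04 ± 1.08 FPKM). Tia1 (-0.38 ± 0.18) and Zfp36l2 (0.40 ± 0.29) had overlapping groups.

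The other early response genes were split between the directions. Of 31 tested, 15 were higher and 16 lower, with a median of -0.01. The groups were apart for 4 as lower genes (11.7% of all genes) and for 7 as higher genes (9.4% of all genes). The 4 lower genes were Cyr61, Fos, Jun and Plk3. Cyr61, a matricellular protein gene, stood at 305.9, 845.0 and 930.1 FPKM with saline and 152.4 to 180.1 FPKM with exosomes. Plk3, a stress kinase gene, stood at 7.25 ± 1.56 and 3.29 ± 0.610 FPKM. Among the higher genes, the EGFR inhibitor gene Errfi1 stood at 121.1 ± 18.1 and 255.3 ± 68.7 FPKM and Myc at 2.45 ± 0.671 and 5.30 ± 1.31 FPKM. Without saline 1, 4 genes of this list passed in limma, all lower: Atf3 (adjusted p = 7.04e-04), Jun (0.00160), Cyr61 (0.00187) and Klf6 (0.0430). In each of these 4, saline 1 was the saline library nearest the exosome level, so leaving it out widened the difference. With all 6 libraries none of the 4 passed (limma adjusted p of 0.237 to 0.304).

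**Figure D4:**
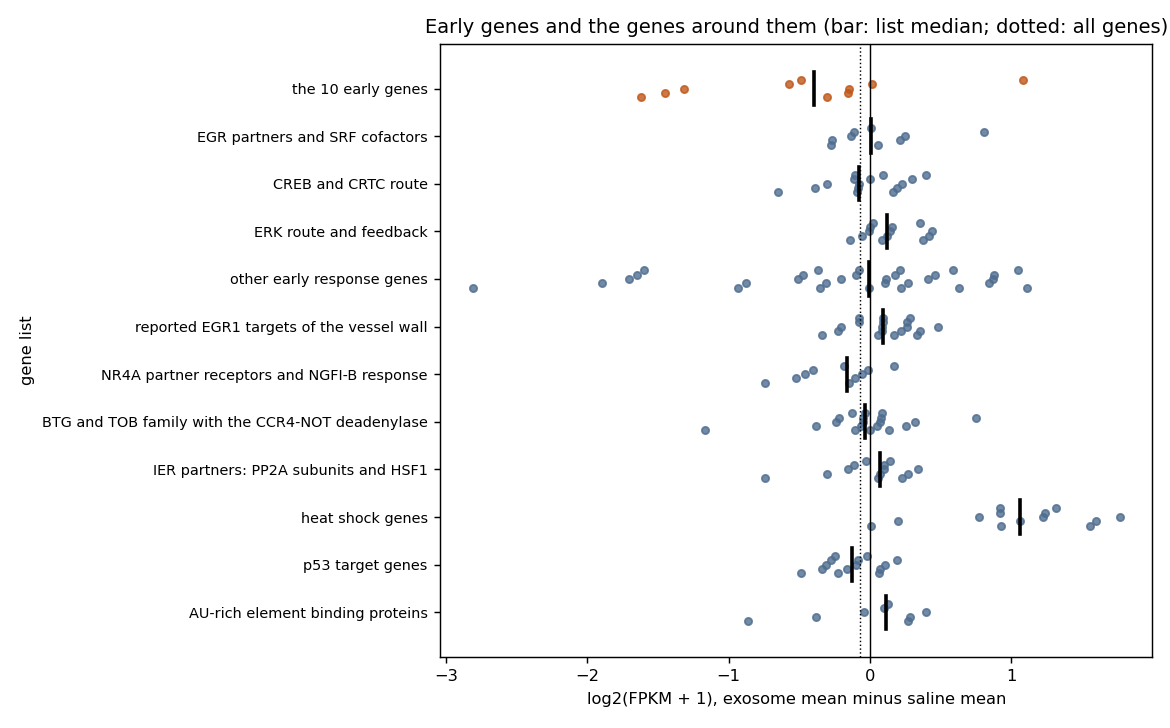
Difference between the exosome and saline means in log2(FPKM + 1) for the 10 early genes and for each tested gene of the 11 lists around them (points), with the list median as a bar and the median of all genes as a dotted line. The heat shock genes have the highest median, 1.06, and the other lists have medians between -0.17 and 0.12.

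The profile of the 9 tested members (all but Egr2) over the 6 libraries, taken as the mean of their standardised values, was most like that of Mmp16 (Pearson r = 0.995), Arnt2 (0.991), LOC100912008 (0.985), Fosb (0.975) and Rdh10 (0.971). Fosb, another early gene, stood at 20.4, 20.1 and 23.9 FPKM with saline and 4.21, 2.24 and 23.2 FPKM with exosomes, so exosome 3 alone was at the saline level. The genes most like Egr1 were Slc22a17 (0.989), Tmem177 (0.964) and Socs1 (0.962). With 6 libraries, 35 genes had an r over 0.9 with the mean profile and 38 with Egr1, so these names are a description of these libraries only.

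**Figure D5:**
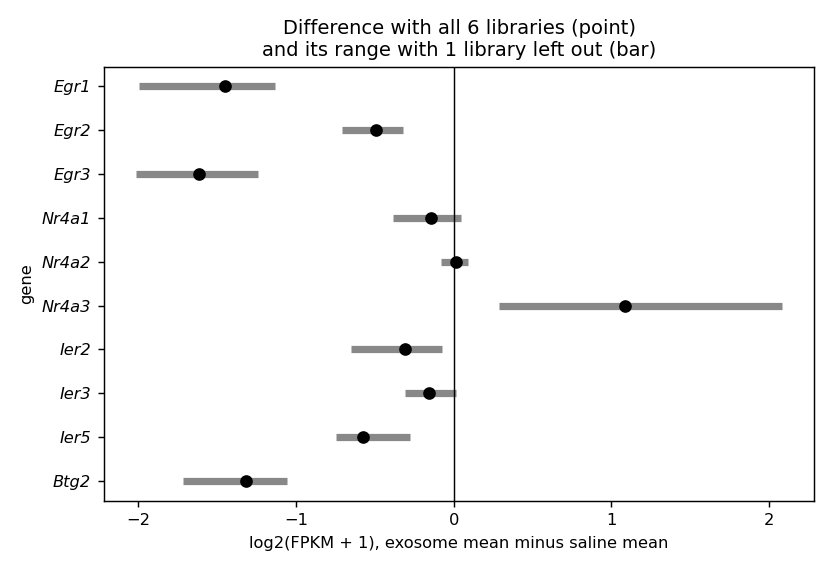
Difference between the exosome and saline means in log2(FPKM + 1) for each gene with all 6 libraries (points), and the range of the 6 values with 1 library left out (bars). Egr1, Egr2, Egr3, Ier2, Ier5 and Btg2 stay below 0 and Nr4a3 above 0 over these 6 values; Nr4a1, Nr4a2 and Ier3 cross 0.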

How the data were processed

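RNA-seq libraries of rat aorta, 3 saline and 3 exosome, were made with the SMARTER mRNA-Seq kit, per the labels' protocols. The authors deposited expression as FPKM, in 1 table with a column for each library. DESeq2 1.28.1 stands in the submitters' processing notes without a stated role. For the aligner, counting tool, strand setting, build and annotation, details were not given in the sources used here. Overlapping genes and paralogs could not be separated further.

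From the FPKM steps, whole reads came out for 18430 genes (100% of those above 0, within 0.02 reads), and with them gene lengths and library totals. The chi-square per gene between libraries was 46.8 to 181.9, so no library was a duplicate. Genes were tested on log2(FPKM + 1) by limma (version 3.58.1, R 4.3.3) with an intensity trend, for those with a mean of at least 1 FPKM, at a Benjamini-Hochberg threshold of 0.05. The limma fit was also run on simulated reads that used the same spread setting for all genes. The spread here differed between genes, so that run does not measure its accuracy on these data. The members, lists and tests were chosen with earlier results of these data known. Named list genes are the up to 4 with the smallest p per list, plus partners of the members; the like profiles are the 5 and 3 genes with the highest r. Of 254 listed symbols 252 matched the table, 4 of them through synonyms of the GRCr8 gene table. Promoter sequences came from RefSeq, build GRCr8. Alternatives were other pseudocounts, filters, scalings, moderation, library weights, voom on recovered reads, a replicate block and left-out libraries. Tables were handled with pandas 2.3.3 and numpy 2.4.6 under Python 3.11.15, and figures drawn with matplotlib 3.10.9.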

Additional observations from a re-analysis of the deposited data

How the results depend on the processing

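The count of genes past the threshold, 1 in the reported fit, was 2 under quantile normalization and 618 with library weights. The weights were estimated gene by gene, because the joint estimate did not converge. With each library left out the count was between 0 and 9 (9 without saline 1, 4 without exosome 2, 2 without exosome 3, 0 without saline 3 or exosome 1). It was 1 in the other settings. Leaving out exosome 1 and 3 together keeps 1 exosome library, so no count is given for that setting. With library weights 14 genes of the fixed lists passed, against 0 in the reported fit and 0 to 4 with each library left out (4 without saline 1). These weights ranged from 0.386 for exosome 2 to 2.81 for exosome 1, and the cause was not tested. The median log2 difference of the 10 members, -0.40, was between -0.65 and -0.22 with each library left out. With exosome 2 as the only exosome library it was -0.87. Over these settings 7 to 10 members were lower. Of 159 values of single members, 153 moved by less than 1 SD. The 159 include the other filters and the replicate block, which cannot move the difference of a member. Rescaling moved the median of all genes from -0.07 to between -0.04 and -0.01, and the share of genes higher from 39.3% to 43.9% with equal sums, 47.8% with quantile normalization and 49.0% with the median of ratios. No member changed sign, with Egr2 not computed under quantile normalization. With the replicate number as a block 1 gene passed, the same number as without it. Libraries with the same number deviated from their group means with correlations of 0.07, 0.10 and -0.17 over genes, so the numbers were not taken to pair them. Depth limits Egr2 most, with 17 reads in its thinnest library.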

Other observations

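Among close relatives outside the 10 members, Ier5l was at 3.84, 2.94 and 4.56 FPKM with saline and at 5.88, 5.30 and 8.09 FPKM with exosomes, so every exosome library lay above every saline library, while Ier5 was lower on average. Fos stood at 78.4, 48.4 and 115.8 FPKM with saline and 8.06, 30.8 and 44.7 FPKM with exosomes, with groups apart, whereas Junb stood at 50.3, 20.3 and 31.4 FPKM and 22.3, 37.7 and 101.8 FPKM and overlapped. Saline 2 was the lowest saline library for Fos and Junb, as for Egr1, Egr2 and Ier2. Gadd45b, a stress-induced regulator of MAP kinase signalling, was at 3.87, 4.399 and 3.69 FPKM with saline and 9.47, 5.03 and 18.6 FPKM with exosomes. Among its exosome libraries exosome 3 was the highest and exosome 1 the next, as for Nr4a3, Egr2, Egr3, Nr4a2, Ier3 and Btg2. These genes were chosen after their values were seen, and none passed in limma (adjusted p = 0.262 for Ier5l and 0.284 for Fos and Gadd45b, 0.668 for Junb).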
